A study of Mus musculus with 6 samples.

Results

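Annexins and S100 proteins were followed as RNA in mouse intestinal tumour organoids, across 3 Control libraries and 3 libraries labelled SOX17KO. The members were the genes of the deposited count table whose symbol is Anxa with a number, or S100 followed by a, b, g or p. This gave 28 of 23224 genes, made up of 12 annexin genes and 16 S100 genes. S100pbp, which encodes a binding protein of S100P and is not itself an S100 protein, was kept apart. All 6 samples were AKP organoids from tumours grown in vivo. The labels do not spell out the alleles behind the name AKP. Per the series' design text, the gene of the endoderm transcription factor SOX17 was deleted with CRISPR-Cas9 in the SOX17KO group, which Sox17 RNA does not check here. The labels do not say what the Control organoids received, or whether the libraries of a group came from separate clones or cultures, so p-values measure only the spread between these libraries.

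Annexins bind negatively charged membrane lipids when calcium rises, through a repeated core domain, and take part in membrane repair, vesicle traffic and the link between membrane and actin. S100 proteins are small proteins of the EF-hand type, most of them calcium-binding, that work mostly as dimers. The families meet directly, since some S100 dimers hold the tails of annexins: S100a10 binds Anxa2, and S100a11 binds Anxa1. Many members are abundant in gut and other epithelia, whereas S100a8 and S100a9 are known from neutrophils and S100a4 from mesenchymal and migrating cells.

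Levels are given as CPM, the counts of a gene scaled to a common library size with the TMM factors of edgeR. Library totals ran from 18290912 to 27503254 counts. Sox17 RNA measured 34.4, 34.5 and 34.2 CPM in the Control libraries and 33.8, 41.9 and 45.1 CPM in those labelled SOX17KO (edgeR adjusted p = 0.345). Without SOX17KO replicate 1 it was called higher (log2 fold change 0.34, edgeR adjusted p = 0.0113), in a fit that called 22.2% of all genes tested. Sox17 RNA was not lower, so the labels could not be checked on it. SOX17KO replicate 1 was the odd library: its log2 CPM correlated at 0.960 and 0.963 with the others of its group, which correlated at 0.986 with each other. The 10 epithelial markers, among them Epcam, Cdh1 and the keratins Krt8, Krt18 and Krt19, summed to 13600 to 14400 CPM in Control, 10000 CPM in SOX17KO replicate 1 and, in replicates 2 and 3, to 14270 and 14210 CPM. In SOX17KO replicate 1 Krt8, Krt18 and Krt19 were below the Control range. Epcam (677.7 CPM against 523.5 to 541.9), Cdh1 (775 against 648.4 to 738.9) and Cldn7 (289.7 against 217.1 to 230.2) were above it there. Epcam, Cdh1 and Cldn7 were also above it in SOX17KO replicates 2 and 3, and Krt19 and Cldn3 were below it in every SOX17KO library. Over all libraries Epcam and Cldn7 were called higher and Cldn3 lower (edgeR adjusted p = 0.0343, 0.0223 and 0.00136). Of the 6 fits that left out a library, Epcam was called in 1 and Cldn7 in 3 (highest edgeR adjusted p 0.207 and 0.143). Cldn3 was called in all 6. The 10 fibroblast markers summed to at most 0.725 CPM in any library, with Col3a1, Dcn, Lum and Thy1 at 0 in all 6. The 9 neutrophil and macrophage markers in the table summed to 6.11 to 14.7 CPM, mostly from Cd68, and Elane and Mpo were at 0. The 8 lymphocyte markers summed to at most 0.239 CPM and the 6 endothelial markers to at most 2.79 CPM. The 5 glial markers summed to at most 1.10 CPM except in SOX17KO replicate 1, where they reached 6.98 CPM, nearly all from Ngfr. The 8 squamous markers summed to 142 to 198 CPM, with Krt5 at 0 and Krt14 as the main part. In bulk RNA, fewer cells of a type and less RNA per cell cannot be told apart.

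In the libraries labelled SOX17KO, Anxa8 and S100a4 were called lower. No tested annexin or S100 gene was called higher with all 6 libraries, which does not show that none rose. Without SOX17KO replicate 1, Anxa4, S100a13 and Anxa10 were called higher, in a fit that called 22.2% of all genes tested. The default low-count filter of edgeR left 20 members to test, 10 of each family, and 8 were too low. Of the 10 annexin genes 1 was called lower and 0 higher, and of the 10 S100 genes 1 was called lower and 0 higher, by the quasi-likelihood test of edgeR with Benjamini-Hochberg adjustment at 0.05. Over all 12137 genes tested, 6.87% were called, 3.20% lower and 3.67% higher. In each family the called gene was also the 1 gene with an unadjusted p below 0.05, and DESeq2 and limma-voom likewise called 1 lower and 0 higher in each. Over all 12137 genes tested, 2463 had an unadjusted edgeR p below 0.05. Without any one Control library edgeR called 0 members in either family, with 1 gene in each at an unadjusted p below 0.05. Without SOX17KO replicate 2 it called 0 S100 genes, with 4 at an unadjusted p below 0.05.

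The 250 bases before the start of these 2 called genes are printed here, with those of S100a6, the nearest tested gene after S100a4 in chromosome order. They come from the RefSeq promoter table on GRCm38.p6, a later build than the mm9 of the deposited counts, and 22 of the 28 members had an entry there. All 3 are on the plus strand: Anxa8 at chr14:34085729-34085978, S100a4 at chr3:90603520-90603769 and S100a6 at chr3:90612644-90612893. Capitals mark matches to 4 short motifs: the SOX core ACAAT, the TCF/LEF motif CTTTGA and the AP-1 motif TGANTCA, each on both strands, and the TATA box TATAAA on the gene's strand.
Anxa8: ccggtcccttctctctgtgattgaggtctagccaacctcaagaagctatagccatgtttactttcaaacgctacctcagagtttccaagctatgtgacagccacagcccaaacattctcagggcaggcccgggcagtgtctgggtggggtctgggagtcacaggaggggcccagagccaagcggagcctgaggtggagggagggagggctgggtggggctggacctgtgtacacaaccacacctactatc
S100a4: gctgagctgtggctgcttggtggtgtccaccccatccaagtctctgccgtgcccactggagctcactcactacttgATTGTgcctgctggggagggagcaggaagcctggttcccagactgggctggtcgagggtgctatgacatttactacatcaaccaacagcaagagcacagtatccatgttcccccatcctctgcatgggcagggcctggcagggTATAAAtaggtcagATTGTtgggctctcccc
S100a6: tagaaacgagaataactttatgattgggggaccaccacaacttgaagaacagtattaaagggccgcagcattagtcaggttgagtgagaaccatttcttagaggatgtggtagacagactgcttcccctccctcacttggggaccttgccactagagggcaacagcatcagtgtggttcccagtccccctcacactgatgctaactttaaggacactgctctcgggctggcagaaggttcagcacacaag
The S100a4 window held the SOX core on the reverse strand, read as ATTGT, beginning 174 and 17 bases before the start, and a TATA box beginning 31 bases before it. The windows of Anxa8 and S100a6 held none of the 4 letter strings. Among 32851 promoter windows of the same length, 27.7% held the SOX core, 13.8% the TCF/LEF motif, 6.75% the AP-1 motif and 7.59% the TATA box. A match describes letters and not a bound site.

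Anxa8 encodes an annexin first known as a vascular anticoagulant protein. Its levels were 168.3, 162.4 and 170.2 CPM in Control replicates 1, 2 and 3, and 120.6, 121.5 and 108.3 CPM in SOX17KO replicates 1, 2 and 3. The groups did not overlap, and SOX17KO replicate 1 lay with the other two. The log2 fold change was -0.51 ± 0.08 (SE), with a 95% interval of -0.70 to -0.33 (edgeR adjusted p = 0.0114). Its size held without each library, at -0.55 to -0.46, while the call did not hold without Control replicate 1, 2 or 3 (edgeR adjusted p = 0.0766, 0.0736 and 0.0769). The 3 nearest tested genes on each side, in RefSeq gene order on chromosome 14, were not called: Arhgap22, Mapk8 and Zfp488 before it and Fam35a, Glud1 and Bmpr1a after it had log2 fold changes from -0.39 to 0.15.

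S100a4, known as metastasin or fibroblast-specific protein, binds non-muscle myosin and is linked to cell migration. It was at 15.9, 12.9 and 15.9 CPM in Control replicates 1, 2 and 3, from 1126 counts in all, against 8.09, 5.49 and 4.66 CPM in SOX17KO replicates 1, 2 and 3, from 421 counts. Every library labelled SOX17KO was below every Control library, and SOX17KO replicate 1 was the highest of the 3. The log2 fold change was -1.29 ± 0.22 (SE), with a 95% interval of -1.81 to -0.76 (edgeR adjusted p = 0.0179). It was -1.55 without SOX17KO replicate 1 (edgeR adjusted p = 7.31e-05). The gene was not called without Control replicate 1, 2 or 3 (edgeR adjusted p = 0.107, 0.0645 and 0.0985) or without SOX17KO replicate 2 (0.0546). The fibroblast markers summed to 0.0478 to 0.217 CPM in Control and 0.443 to 0.725 CPM in SOX17KO, near 0 in both groups.

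**Figure D1:**
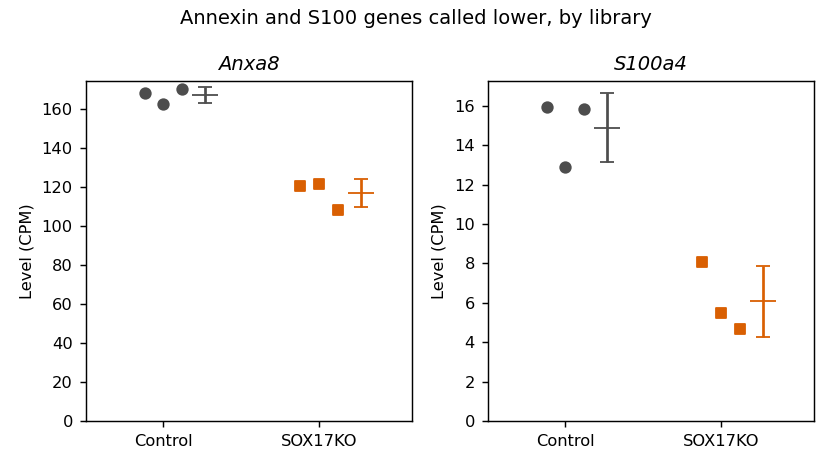
Level in CPM (vertical axis, from 0) of Anxa8 and S100a4 in each Control (circles) and SOX17KO (squares) library; the bars beside the points are mean ± SD, n = 3. For both genes all SOX17KO points lie below all Control points, Anxa8 at 108.3 to 121.5 against 162.4 to 170.2 CPM and S100a4 at 4.66 to 8.09 against 12.9 to 15.9 CPM.

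S100a4 lies in a row of S100 genes on chromosome 3, which carries 14 of the 16 S100 genes, so a neighbour's value is at hand. The nearest tested genes before it were S100a3, S100a16 and S100a14, with log2 fold changes of -0.27, -0.31 and -0.28 (edgeR adjusted p = 0.631, 0.341 and 0.507). S100a6 and S100a7a after it had -0.17 and -0.21 (adjusted p = 0.641 and 0.819). None of these was called. The third tested gene after it, Lor, which encodes the keratinocyte envelope protein loricrin, fell from 33.5 ± 1.72 to 14.2 ± 4.28 CPM (SD, n = 3; log2 fold change -1.24 ± 0.22, edgeR adjusted p = 0.0199). Lor was not called without Control replicate 1, 2 or 3 (edgeR adjusted p = 0.0995, 0.0875 and 0.101). The ratio of S100a4 to S100a6 CPM was 0.0113, 0.00925 and 0.0102 in the Control libraries and 0.00773, 0.00347 and 0.00373 in SOX17KO replicates 1, 2 and 3.

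Most members were abundant in these organoids. Set per kilobase of exon, with union exon lengths from the GENCODE M21 annotation, S100a11 ranked 3 of 10921 tested genes with a length in Control, at 2230 ± 53.8 CPM per kilobase (SD, n = 3). S100a6 followed at rank 23 with 1060 ± 66.1, Anxa2 at rank 31 with 922 ± 23.9 and S100a14 at rank 34 with 815 ± 34.7 CPM per kilobase. Anxa1 ranked 76, S100a16 100 and S100a10 128. These ranks place the pairs S100a11 with Anxa1 and S100a10 with Anxa2 near the top of the transcriptome of the organoids. Anxa5, Anxa4, S100a1 and Anxa3 came next, between 223 and 112 CPM per kilobase in Control. Below them Anxa8 and Anxa11, at 88.8 ± 2.16 and 87.5 ± 2.06 CPM per kilobase, did not differ beyond their spread in Control. In SOX17KO Anxa8 stood at 62.1 ± 3.92 and rank 736 in place of 486. S100a4 moved from rank 2003, at 25.5 ± 2.99 CPM per kilobase, to rank 4298, at 10.4 ± 3.07. S100a7a, Anxa9 and S100a3 were the lowest tested members, at 1.96, 1.84 and 0.431 CPM per kilobase in Control. A union of exons counts every annotated isoform, so long rare isoforms lower the value of genes such as S100a3, whose union is 5660 bases against 511 for S100a11. Together the 12 annexin genes took 0.739% ± 0.0153 of all counts in Control and the 16 S100 genes 0.512% ± 0.0226 (SD, n = 3).

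**Figure D2:**
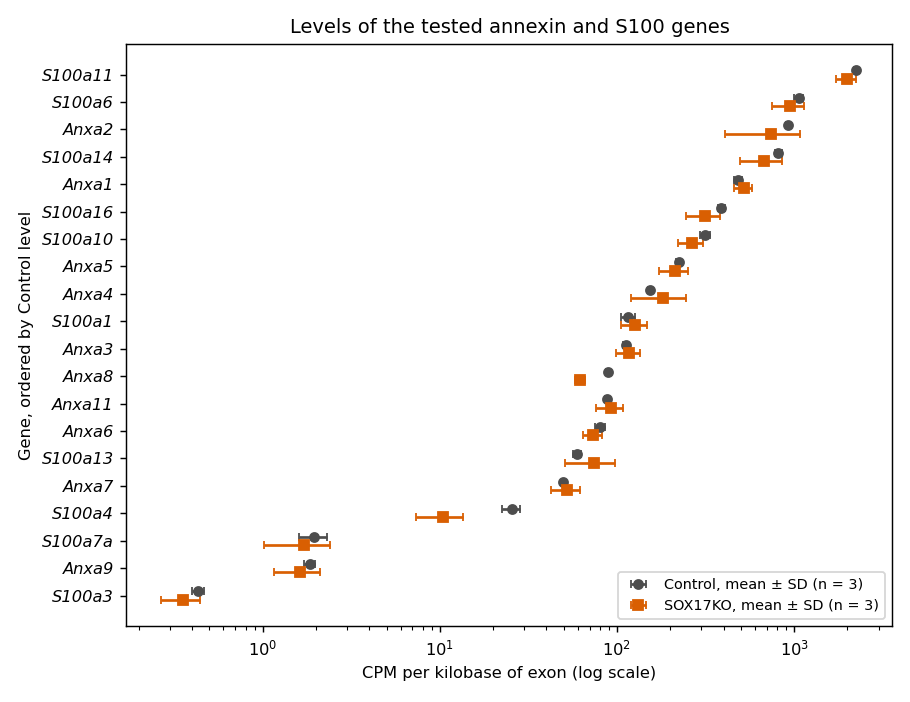
Mean level of each tested annexin and S100 gene in CPM per kilobase of exon (horizontal log axis) in Control (circles) and SOX17KO (squares); bars are ± SD, n = 3, and genes are ordered by Control level. The markers nearly coincide for most genes, from S100a11 at 2230 down to S100a3 at 0.431 in Control, and part most at S100a4, at 25.5 and 10.4.

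Anxa2, which bridges membranes and holds plasminogen activator at the cell surface together with S100a10, was the annexin with the widest spread. It was at 3412, 3371 and 3542 CPM in Control replicates 1, 2 and 3, against 1361, 3809 and 3166 CPM in SOX17KO replicates 1, 2 and 3. SOX17KO replicate 1 was far below the Control range, replicate 3 slightly below it and replicate 2 above it. The log2 fold change was -0.31, with a 95% interval of -1.10 to 0.48 (edgeR adjusted p = 0.706), and it was 0.02 without SOX17KO replicate 1 (0.911). The partner S100a10 measured 364.5, 368.4 and 412.9 CPM in Control, against 258.8, 346.6 and 354.1 CPM in SOX17KO. These groups did not overlap, as was so for 28.2% of all tested genes, but the log2 fold change of -0.26 (95% interval -0.57 to 0.06) was not called (edgeR adjusted p = 0.356). The ratio of Anxa2 to S100a10 CPM was 9.36, 9.15 and 8.58 in Control and 5.26, 11 and 8.94 in SOX17KO replicates 1, 2 and 3, with replicate 1 farthest from the Control ratios.

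Anxa1 encodes a phospholipase A2-inhibiting, pro-resolving annexin, and S100a11 its dimeric partner. Anxa1 was at 1325, 1430 and 1475 CPM in Control, against 1323, 1543 and 1673 CPM in SOX17KO replicates 1, 2 and 3, and the groups overlapped (log2 fold change 0.10, 95% interval -0.16 to 0.36). S100a11 was at 1139, 1110 and 1165 CPM in Control, against 883.8, 1148 and 1021 CPM in SOX17KO (log2 fold change -0.16, 95% interval -0.42 to 0.10). Neither was called (edgeR adjusted p = 0.706 and 0.50). The ratio of Anxa1 to S100a11 CPM was 1.16, 1.29 and 1.27 in Control and 1.5, 1.34 and 1.64 in SOX17KO. The ratios did not overlap, but 3 libraries against 3 cannot give an exact two-sided permutation p below 0.10.

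Anxa4, an annexin of secretory and apical epithelial membranes, differed in direction between SOX17KO libraries. It was at 700.3, 722.3 and 710.3 CPM in Control, against 510.8, 1038 and 996.9 CPM in SOX17KO replicates 1, 2 and 3. SOX17KO replicate 1 lay below all Control libraries and replicates 2 and 3 above all of them. Over all 6 libraries it was not called, its log2 fold change being 0.26 with a 95% interval of -0.33 to 0.84 (edgeR adjusted p = 0.669). Without SOX17KO replicate 1 it was called higher, at 0.52 (edgeR adjusted p = 0.000429), in a comparison that called 22.2% of all genes tested, 11.9% higher and 10.3% lower. S100a13, which assists the release of growth factors lacking a signal peptide, also changed its call with that library. It was at 43.3, 40.0 and 44.1 CPM in Control, against 39.4, 71.2 and 47.8 CPM in SOX17KO, highest in replicate 2, and was called higher without SOX17KO replicate 1 (log2 fold change 0.49, edgeR adjusted p = 0.0306) but not with it (0.31, adjusted p = 0.482). Without SOX17KO replicate 2 its log2 fold change was 0.04.

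The other annexins showed no called change. Anxa5, the phosphatidylserine binder used as a probe of dying cells, was at 386.7 to 410.2 CPM in Control, against 306.5, 444.3 and 381.4 CPM in SOX17KO. Anxa11, which tethers RNA granules to lysosomes, was at 352.8 to 369.6 CPM in Control, against 305.8, 425.2 and 410.3 CPM in SOX17KO. Anxa3 was at 393.1 to 419.3 CPM in Control, against 351.3, 467.1 and 459.5 CPM in SOX17KO. In these 3 genes SOX17KO replicate 1 was below the Control range, replicate 2 above it, and the groups overlapped. Anxa7 was at 292.2 to 302.0 CPM in Control, against 251.6, 367.9 and 313.4 CPM in SOX17KO. Anxa6, the annexin with a duplicated core, was at 224.5 to 254.1 CPM in Control, against 183.8, 235.0 and 224.0 CPM in SOX17KO. The log2 fold changes of these 5 genes lay between -0.14 for Anxa6 and 0.07 for Anxa11, and the outermost bounds of their 95% intervals were -0.41 and 0.39. Anxa9 was a low-level member at 3.50 to 4.02 CPM in Control and 2.29 to 4.17 CPM in SOX17KO (log2 fold change -0.18, 95% interval -0.77 to 0.42).

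Among the S100 genes, 8 of 10 had a negative log2 fold change, with a median of -0.23, against 47.3% negative and a median of 0.01 over all tested genes. Much of that median came from SOX17KO replicate 1. The median log2 ratio to the Control mean was -0.52, -0.02 and -0.13 in replicates 1, 2 and 3. Without replicate 1, 7 of 10 were negative. S100a14, an S100 protein of epithelial cells, was at 1348, 1409 and 1468 CPM in Control, against 809.7, 1352 and 1323 CPM in SOX17KO. Its neighbour S100a16 was at 624.6, 601.9 and 657.6 CPM in Control, against 385.9, 598.6 and 534.1 CPM in SOX17KO. Both were lowest in SOX17KO replicate 1, and S100a16 was with S100a4 and S100a10 one of 3 S100 genes of 10 whose groups did not overlap, all lower in SOX17KO. Over all tested genes 28.2% did not overlap in either direction and 14.2% were lower without overlap. Their log2 fold changes of -0.28 (95% interval -0.73 to 0.18) and -0.31 (-0.69 to 0.06) were not called (edgeR adjusted p = 0.507 and 0.341). S100a6, or calcyclin, was at 1407, 1391 and 1555 CPM in Control, against 1047, 1580 and 1247 CPM in SOX17KO (log2 fold change -0.17, 95% interval -0.53 to 0.20). S100a1 was at 72.3 to 85.4 CPM in Control and 75.3 to 104.1 CPM in SOX17KO. S100a3 was at 2.32 to 2.66 and 1.55 to 2.55 CPM, and S100a7a, an antimicrobial S100 of skin, at 2.13 to 3.08 and 1.37 to 3.27 CPM. These groups overlapped and none of the 3 genes was called. For the annexins the median log2 fold change was 0.00, with 5 of 10 negative, and 1 had groups that did not overlap.

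**Figure D3:**
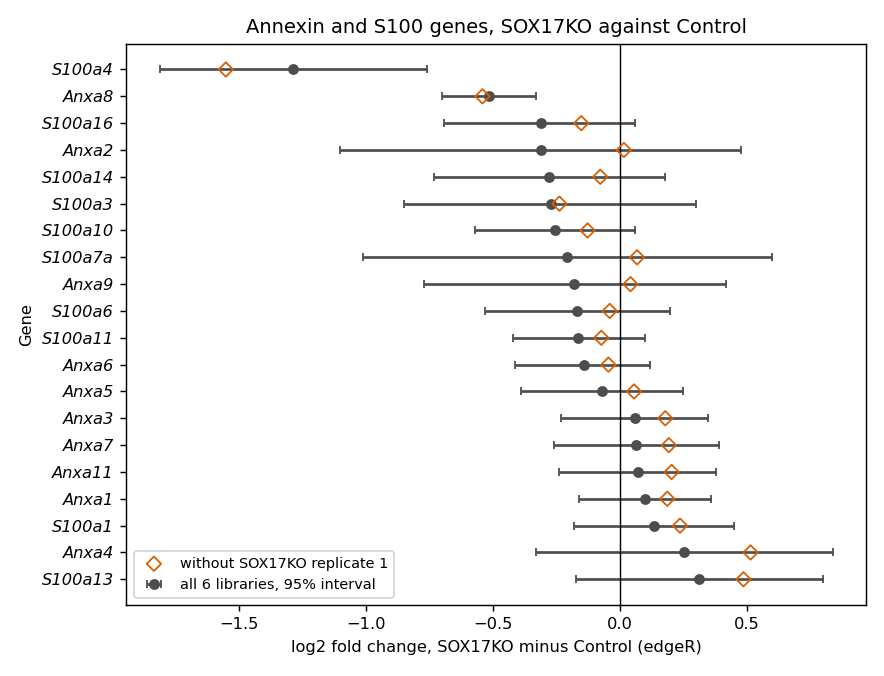
Log2 fold change of each tested member, SOX17KO minus Control (horizontal axis; circles, with 95% interval), and the value without SOX17KO replicate 1 (open diamonds). The intervals of Anxa8 and S100a4 stay below 0, the other 18 cross it, and the diamonds of Anxa4 and S100a13 lie at 0.52 and 0.49.

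Library by library, SOX17KO replicate 1 was lower across both families. All 10 tested annexins and all 10 tested S100 genes were below their Control mean there, against 49.5% of all tested genes and 52.3% of those with a mean of at least 64 CPM. All 10 annexins and 9 of the S100 genes were also below the lowest Control library, as were 40.3% of all tested genes. In SOX17KO replicate 2, 8 annexins were above the Control range and 1 was below it, while 3 S100 genes were above and 3 below, against 37.7% above and 36.0% below over all tested genes. In replicate 3, 5 annexins were above and 4 below, and 3 S100 genes were above and 7 below, against 38.0% and 37.2% over all tested genes. The medians of the log2 ratio to the Control mean in replicates 1, 2 and 3 were -0.37, 0.16 and 0.01 for annexins and -0.52, -0.02 and -0.13 for S100 genes, against values within 0.02 of 0 for tested genes of at least 64 CPM. The epithelial marker sum given above was also lowest in SOX17KO replicate 1, and its part in these levels was not tested. Krt8 and Krt18 were below the Control range in that library only. Krt19 and Cldn3 were below it, and Epcam, Cdh1 and Cldn7 above it, in every SOX17KO library. The share of all counts from annexin genes was 0.499%, 0.823% and 0.763% in SOX17KO replicates 1, 2 and 3 and 0.726% to 0.756% in Control. For S100 genes it was 0.372%, 0.507% and 0.456%, against 0.493% to 0.537%.

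The spread within the SOX17KO group was larger than in Control for all 20 tested members by SD, as it was for 81.8% of all tested genes. The coefficient of variation of a member ran from 1.55% (Anxa4) to 18.4% (S100a7a) in Control, with a median of 4.75%. In SOX17KO it ran from 6.32% (Anxa8) to 45.7% (Anxa2), with a median of 19.8%. Anxa8 was thus the steadiest member in the SOX17KO libraries, and Anxa4, the steadiest in Control, had 34.6% there.

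**Figure D4:**
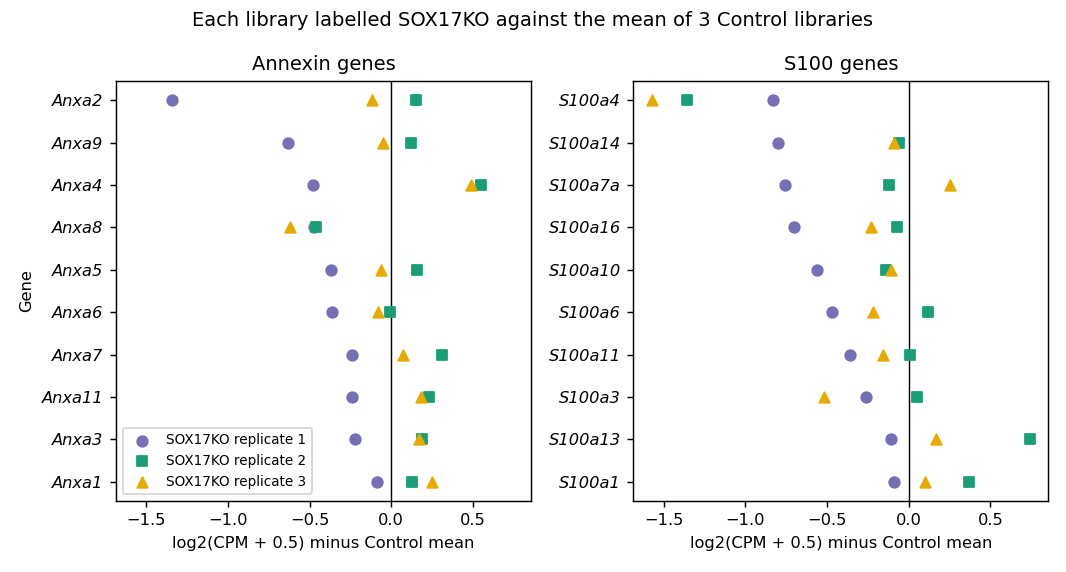
Log2(CPM + 0.5) of each tested annexin (left) and S100 gene (right) in each SOX17KO library minus the mean of the 3 Control libraries (horizontal axis); circles, squares and triangles are SOX17KO replicates 1, 2 and 3. Every circle lies below 0, down to -1.34 at Anxa2, while the squares and triangles fall on both sides; S100a4 and Anxa8 are the genes with all 3 markers at -0.46 or less.

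The remaining 8 members, some known from other cell types, were too low to test. S100a8 and S100a9, the calprotectin pair of neutrophils, had 2 and 1 counts over the 3 Control libraries and 4 and 2 over the SOX17KO libraries. S100b, a glial and neuronal S100, had 3 and 5 counts. S100g, the vitamin D-dependent calbindin of duodenal enterocytes, had 0 counts over Control and 2 over SOX17KO. S100a5 had 0 counts in every library, which allows up to 3 counts, or 0.109 to 0.166 CPM, per library, for counting error only. S100a2 had 22 and 13 counts. Anxa13, an annexin of enterocytes, had 1 and 2. Anxa10, a gastric annexin, had 1, 1 and 3 counts in Control and 1, 11 and 12 in SOX17KO replicates 1, 2 and 3. When SOX17KO replicate 1 was left out, Anxa10 passed the filter only through SOX17KO replicates 2 and 3, where it was high. It was called higher there (edgeR adjusted p = 0.00831), in a fit that called 22.2% of all genes tested. That call rests on the same libraries that let it pass and is no separate support. S100pbp was at 1.45 to 1.58 CPM in Control and 1.83 to 2.06 CPM in SOX17KO, without overlap, and was not called (log2 fold change 0.36, 95% interval -0.12 to 0.83, edgeR adjusted p = 0.392).

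Partners and receptors of both families mostly did not pass the test. Of 20 tested genes on that list 1 was called higher and 1 lower, with a median log2 fold change of 0.00. Over all tested genes 6.87% were called, with a median of 0.01. Plat, the tissue plasminogen activator held by the Anxa2 and S100a10 complex, rose from 10.98 ± 2.08 to 22.1 ± 1.81 CPM (SD, n = 3; log2 fold change 1.01 ± 0.16, edgeR adjusted p = 0.0134). Tgm2, a transglutaminase that crosslinks S100 proteins, fell from 35.0 ± 4.71 to 21.4 ± 2.55 CPM (-0.72 ± 0.14, adjusted p = 0.0263). Ahnak, the giant scaffold bound by S100a10, was the most abundant of the list at 3371 ± 359.4 and 2651 ± 624.5 CPM (adjusted p = 0.348). Plat was not called without Control replicate 2 or 3 (edgeR adjusted p = 0.0803 and 0.0562). Tgm2 was not called without Control replicate 1, 2 or 3 or SOX17KO replicate 2 (edgeR adjusted p = 0.120, 0.113, 0.0617 and 0.0641).

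Other EF-hand proteins were measured beside the S100 genes. Of 22 tested, 2 were called higher and 1 lower, with a median of -0.01, against 6.87% called over all tested genes. Calml4, a calmodulin-like protein of the intestinal brush border, rose from 0.272 ± 0.0740 to 11.1 ± 5.37 CPM (SD, n = 3; log2 fold change 5.34 ± 0.50, edgeR adjusted p = 0.00186) and was called without each library in turn. Calml4 was at only 0.290, 0.335 and 0.190 CPM in Control replicates 1, 2 and 3. It passed the low-count filter through the SOX17KO libraries alone, so the call and its hold without each library are no separate support. From so low a Control level the size of the change is uncertain. Cib1 rose from 81.8 ± 3.28 to 101.5 ± 2.21 CPM (adjusted p = 0.0473) and its relative Cib2 fell from 7.81 ± 0.422 to 4.01 ± 0.762 CPM (adjusted p = 0.0264). Neither was called when a Control library or SOX17KO replicate 3 was left out, nor Cib1 without SOX17KO replicate 2 (highest edgeR adjusted p 0.259 for Cib1 and 0.134 for Cib2). Cib1 was also not called with library totals only, with no low-count filter or with limma-voom (adjusted p = 0.0596, 0.0877 and 0.0515).

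The next list held other proteins that act at membranes, many but not all of them calcium sensors. Of its 22 tested genes 2 were called higher and 2 lower, with a median of 0.07, against 6.87% called over all tested genes. Plscr1, a phospholipid scramblase, rose from 151.9 ± 9.85 to 209.8 ± 7.92 CPM (SD, n = 3; edgeR adjusted p = 0.0184), and the copine gene Cpne8 from 47.6 ± 1.34 to 64.5 ± 5.97 CPM (adjusted p = 0.0329). The synaptotagmin-like gene Sytl5 fell from 2.75 ± 0.488 to 0.683 ± 0.273 CPM (adjusted p = 0.0170). Its relative Sytl1 fell from 70.0 ± 5.14 to 46.2 ± 7.03 CPM (adjusted p = 0.0366). None of the 4 was called when a Control library or SOX17KO replicate 3 was left out, nor Cpne8 without SOX17KO replicate 2 (highest edgeR adjusted p 0.110, 0.166, 0.105 and 0.166 for Plscr1, Cpne8, Sytl5 and Sytl1). Chmp4b, a subunit of the membrane-scission complex ESCRT-III and the most abundant of the list, was at 247.9 ± 5.26 and 275.1 ± 11.7 CPM (adjusted p = 0.318).

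The last list held genes of the epidermal differentiation complex, the chromosome 3 neighbourhood of the S100 genes that also encodes proteins with an S100 domain fused to a long repeat. Of its 16 measured genes 7 were tested, of which 3 were called lower and 0 higher. All 7 had a negative log2 fold change, with a median of -1.08. Over all tested genes 3.20% were called lower and 47.3% had a negative log2 fold change, with a median of 0.01. At an unadjusted edgeR p below 0.05 there were 4 of the 7, against 2463 of all 12137 tested. DESeq2 and limma-voom also called 3 of the list lower and 0 higher. Besides Lor, Sprr2a1, a cornified envelope precursor, fell from 1420 ± 57.7 to 671.3 ± 114.8 CPM (SD, n = 3; log2 fold change -1.08 ± 0.13, edgeR adjusted p = 0.00541) and was called without each library in turn. Its near-identical copies share reads, so its value is uncertain. Crct1 fell from 2.29 ± 0.402 to 0.997 ± 0.100 CPM (adjusted p = 0.0300) and was called in no fit that left out a library other than SOX17KO replicate 1 (highest edgeR adjusted p 0.152). The S100-fused genes of the list that were tested, Tchh, Rptn and Crnn, were not called (adjusted p = 0.326, 0.700 and 0.201). Crnn, which encodes cornulin, was at 70.5, 65.5 and 58.1 CPM in Control, against 4.47, 26.7 and 34.9 CPM in SOX17KO replicates 1, 2 and 3, without overlap.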

How the data were processed

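RNA was poly(A)-selected and made into directional libraries, per the labels' protocols. The authors deposited 1 table of expected counts, estimated reads per gene, for 6 libraries; per the submitters' processing notes, Bowtie and RSEM were used with the mm9 build. No source used here gives the annotation, the strand setting or tool versions. Values were rounded and tested with edgeR 4.0.16 in R 4.3.3: TMM factors, filterByExpr (minimum count 10, minimum total 15), quasi-likelihood F test on genotype, Benjamini-Hochberg adjustment over 12137 genes, called below 0.05. SE is the log2 fold change divided by the square root of F. No set test was run. Alternatives were RLE factors, library totals, other filters, DESeq2 1.42.0, limma-voom (limma 3.58.1), unrounded values, a replicate block and each library left out.

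The members and lists were chosen with earlier results of these data known. The text names every member, called genes and the most abundant gene of each list, 3 tested neighbours per side of called members, and Sox17; Crnn, Rptn and Tchh were added after their values were seen. A list gene that this rule covers, and that is no member, is not reported here. The listed genes Ahnak2 and Flg and the marker Ly6g were not analysed here; older symbols were matched through RefSeq. RSEM divides reads shared between similar genes; counts of S100a4 were whole in 5 of 6 libraries, those of Anxa2 and S100a11 in 0. Exons of S100a4 overlap those of Gm42674, not tested here. On simulated counts for this comparison with 12048 genes, 19.4%, 61.2% and 95.5% of genes changed 1.5-fold, 2-fold and 4-fold were recovered, with 10 false among 127 calls. Figures used matplotlib 3.10.9.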

Additional observations from a re-analysis of the deposited data

How the results depend on the processing

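Of the 8 settings that kept all libraries, none reversed a member's direction, and Anxa8 lost its call in 1, the fit with the replicate number as a block (log2 fold change -0.52, edgeR adjusted p = 0.0841). That block gave 326 calls over all genes, 0 annexin genes, 1 S100 gene and 3 list genes, in place of 834, 1, 1 and 12. List genes are those of the partner, EF-hand, membrane and epidermal differentiation complex lists together. The last of these lists held 2 of the 3 and 3 of the 12. Deviations of same-numbered libraries from their group means correlated at -0.186, -0.047 and -0.181, and so showed no pairing by replicate number. With 3 libraries a group and SOX17KO replicate 1 apart from its group, these correlations cannot settle whether the libraries were paired. DESeq2 called 1439 genes in all and 21 on those lists. Leaving out 1 library moved the counts to 192 to 2708 over all genes, 0 to 3 annexin genes, 0 to 2 S100 genes and 2 to 27 list genes; the lowest came without a Control library (for S100 genes also without SOX17KO replicate 2) and the highest without SOX17KO replicate 1. Over those fits the log2 fold change changed sign in 8 uncalled members: Anxa2 (-0.606 to 0.017), Anxa3 (-0.013 to 0.180), Anxa5 (-0.206 to 0.057), Anxa7 (-0.077 to 0.194), Anxa9 (-0.368 to 0.043), Anxa11 (-0.017 to 0.205), S100a1 (-0.001 to 0.238) and S100a7a (-0.511 to 0.069). The cause was not tested. With 3 libraries a group, 19.4% of changes of 1.5-fold were recovered on the simulated counts given above, so changes of that size can be missed. That simulation had 127 calls against 834 here, so its share may not carry over to these data.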
